A study of Mus musculus with 105 samples.

Results

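Among single TX1072 cells collected at day 4 of differentiation, 315 of 400 capture sites held at least 40000 UMIs outside the ERCC spike-in sequences. Of these, the 85 cells with at least 20 UMIs of Nanog were taken as Nanog-high and the 98 cells with at most 2 as Nanog-low, and 132 cells lay between these limits. Both classes were thus chosen by the Nanog count of each cell, so their difference in Nanog is part of the choice and is no finding. The whole time course held 1667 such cells at 2000 capture sites. The comparison asks what the cells were that carried Nanog again after its low point at day 2, remnants of the naive state or cells of another kind.

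TX1072 is a female mouse embryonic stem cell (mESC) line from a cross of C57BL6/J and Cast/EiJ, and the cells used here are its clone A3. Xist on its B6 X chromosome can be induced from a doxycycline-responsive promoter, with the rtTA transactivator placed in the Rosa26 locus. Day 0 cells grew on gelatin in serum with LIF and 2i, the pair of inhibitors of MEK and GSK3 that holds mESCs in the naive state. Differentiation was started by withdrawing 2i and LIF in medium with serum on fibronectin. Single cells were captured at days 0 to 4 from 1 culture per day, in 10 columns of 40 capture sites. The columns are parts of that culture and not biological replicates, and the cells were therefore described without a test. The same days were sequenced in bulk, with 3 replicates each, in TX1072 and in TXdXicB6 and TXdXicCast, which lack the X inactivation centre on the B6 or the Cast chromosome and are 1 clone each. Bulk replicate 1 of TX1072 came from the same cell population as the single cells, and bulk libraries held between 16906263 and 57920260 counts.

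Nanog encodes a homeodomain transcription factor of the naive pluripotency network. In the mouse embryo it is on in the naive epiblast, is lost around implantation, and appears again in the posterior epiblast where the primitive streak forms. Eomes and T (Brachyury) are T-box factors of the streak, whereas Esrrb, Klf2, Klf4, Tfcp2l1 and Zfp42 mark the naive state. Simple keratins such as Krt7, Krt8 and Krt18 mark trophoblast and other simple epithelia.

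Nanog (ENSMUSG00000012396, mm10 chromosome 6, 122707489 to 122714633, plus strand) was lowest at day 2 and higher again at day 4. On days 0, 1, 2, 3 and 4 the median cell held 46, 4, 0, 3 and 9 Nanog UMIs. Nanog-high cells were 84.9%, 10.7%, 3.52%, 11.6% and 27.0% of the cells on these days (exact Clopper-Pearson 95% interval at day 4, 22.2% to 32.2%). Day 4 cells were also deeper, with a median of 164640 UMIs against 137374, 123204, 124701 and 123492 on days 0 to 3. Scaled for depth, Nanog pooled over all cells was at 358, 60.0, 23.9, 60.1 and 87.5 CPM. All intervals given for shares and for summed UMIs cover counting error only. Across the 10 capture columns of day 4, the Nanog-high share was between 10.3% and 44.4%, with a median of 28.6%. The Nanog-low share was 0.615% at day 0, reached 79.4% by day 2 and was 31.1% by day 4. No day 4 column was without Nanog-high cells.

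**Figure D1:**
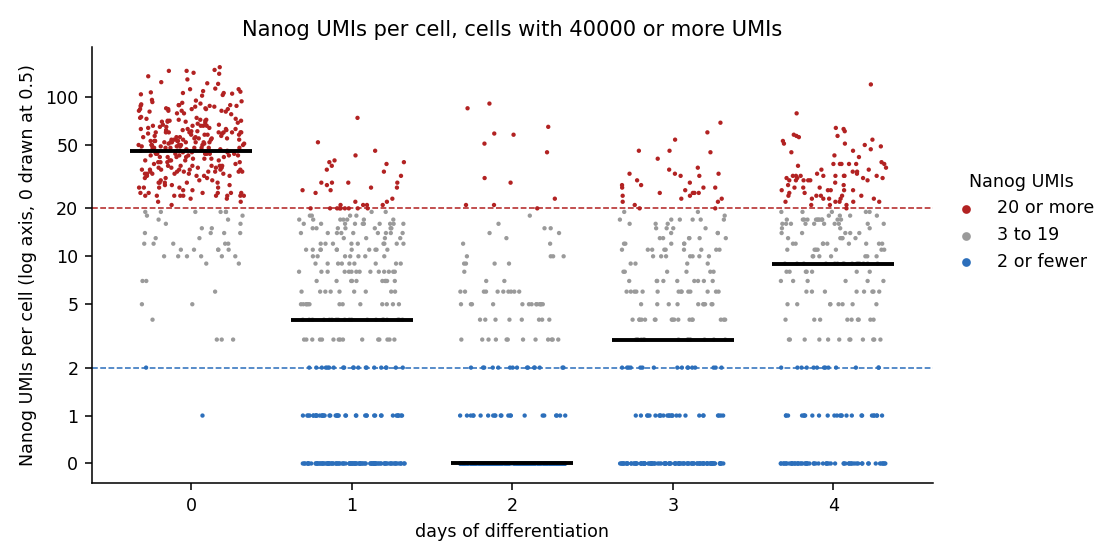
Nanog UMIs in each cell with at least 40000 UMIs (points, log axis, with 0 drawn at 0.5) by days of differentiation, coloured by Nanog class, with the median of each day as a black line. The median falls from 46 at day 0 to 0 at day 2 and stands at 9 at day 4, when 85 of 315 cells lie at or above 20.

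A Nanog-high cell of day 4 held between 20 and 120 Nanog UMIs, with a median of 32. Scaled to counts per 1000000 UMIs (CPM), the median Nanog-high cell had 199.7 CPM of Nanog, below the median of 341 CPM over all day 0 cells. Pooled over the class, Nanog was at 211 CPM in Nanog-high and 3.27 CPM in Nanog-low cells. The median depth was 167806 UMIs in Nanog-high and 166998 in Nanog-low cells, but Nanog-low held more shallow cells, with a lower quartile of 114453 against 147466 UMIs and a minimum of 43174 against 55117. The medians of detected genes per cell (6438 and 6187.5) and of the mitochondrial share of UMIs (2.59% and 2.65%) also lay close together. The authors' own filter retained 77 of the 85 Nanog-high and 75 of the 98 Nanog-low cells, and their inspection of the capture sites listed 1 and 7 of them, respectively, as several cells. Counts of Nanog are uncertain to the extent that reads were shared with its near-identical processed copies, which also holds for Pou5f1, Dppa5a and Krt18.

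Over the 10036 genes with at least 200 UMIs in both classes together, 233 were at least 2-fold higher and 435 at least 2-fold lower in Nanog-high than in Nanog-low cells, which is 2.32% and 4.33% of the genes. A gene also needed a UMI in at least 25% of the cells of the higher class, and the ratio was taken as log2 of CPM plus 1. Members of gene lists were counted as past 2-fold under the same limits, so a member with fewer than 200 UMIs was never counted. The median ratio over all 10036 genes was 0.02 on the log2 scale. The sign was the same in all 10 capture columns for 24 of the higher and 75 of the lower genes. Nanog itself, whose sign was fixed by the choice of cells, is among the 233 and the 24.

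Naive genes stood low in both classes. The 16 naive pluripotency genes summed to 447 CPM in Nanog-high and 334 CPM in Nanog-low cells of day 4, against 4925 CPM over all cells of day 0. Nanog-high cells of day 4 thus stood at 9.08% of the day 0 sum and Nanog-low cells at 6.78%. Of the 16 genes, 8 had a ratio above and 8 below 0, with a median of 0.06 on the log2 scale and an SD over the 10 capture columns of 1.03. Of the 10 members with at least 200 UMIs, 2 were past the 2-fold limit as higher and 1 as lower. The sum was higher in Nanog-high cells in 7 of 10 columns, where it ranged from 183 to 970 CPM (median 418), and from 239 to 461 CPM (median 321) in Nanog-low cells. The Nanog-low range lay within the Nanog-high range. The median cell stood the other way, at 230 CPM in Nanog-high and 279 CPM in Nanog-low cells, and the highest cells were at 4330 and 1407 CPM, so that a few Nanog-high cells raised the sum of their class.

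The 4 naive genes with the most UMIs in the 2 classes were Fgf4, Klf2, Klf5 and Tfcp2l1. Fgf4, the FGF ligand of naive and early epiblast cells, was at 88.6 CPM in Nanog-high and 54.0 in Nanog-low cells and was higher in 7 of 10 columns. Klf2, a Krüppel-like factor that sustains naive self-renewal, was at 66.0 and 37.5 CPM, also higher in 7 of 10. Tfcp2l1, a target of LIF signalling, was at 40.0 and 52.1 CPM and was higher in 4 of 10, and Klf5 was at 58.7 and 60.9 CPM. None of these 4 genes was 2-fold apart between the classes.

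The naive genes described next were chosen after their values were seen. Esrrb, an orphan nuclear receptor of the naive network, was at 55.2 CPM in Nanog-high and 18.0 CPM in Nanog-low cells, and stood at 369 CPM over all day 0 cells. Its column values ranged from 0 to 163 CPM (median 50.6) in Nanog-high and from 0 to 35.8 CPM (median 22.6) in Nanog-low cells, and were higher in Nanog-high cells in 8 of 10 columns. The Esrrb UMIs sat in few cells, as 27 of 85 Nanog-high and 19 of 98 Nanog-low cells had any, against 325 of 325 at day 0. Zfp42 (Rex1) was at 32.9 and 29.7 CPM, against 307 CPM at day 0. Prdm14, a factor of naive and germ cells, was present in 3 of 85 Nanog-high and in 0 of 98 Nanog-low cells, a count of cells with a UMI and not of cells that express the gene.

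Single cells of day 4 rarely reached the naive level of day 0. The 5th percentile of the naive sum over day 0 cells was 3486 CPM, and 265 of 276 Nanog-high cells of day 0 lay at or above it. On days 1 to 4 the same level was reached by 13 of 38, 3 of 13, 2 of 35 and 2 of 85 Nanog-high cells. The sum over Nanog-high cells was 4954, 3200, 2579, 1449 and 447 CPM on days 0 to 4. The naive genes thus stood lower in the Nanog-high class of each later day. Nanog itself was at 388, 199.2, 326, 251 and 211 CPM in the same classes, all of which had been chosen by the same limit. The naive sum also fell in Nanog-low cells, at 2242, 898, 604 and 334 CPM on days 1 to 4. On these days the median log2 ratio of the naive list between the classes was 0.75, 2.27, 1.56 and 0.06.

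**Figure D2:**
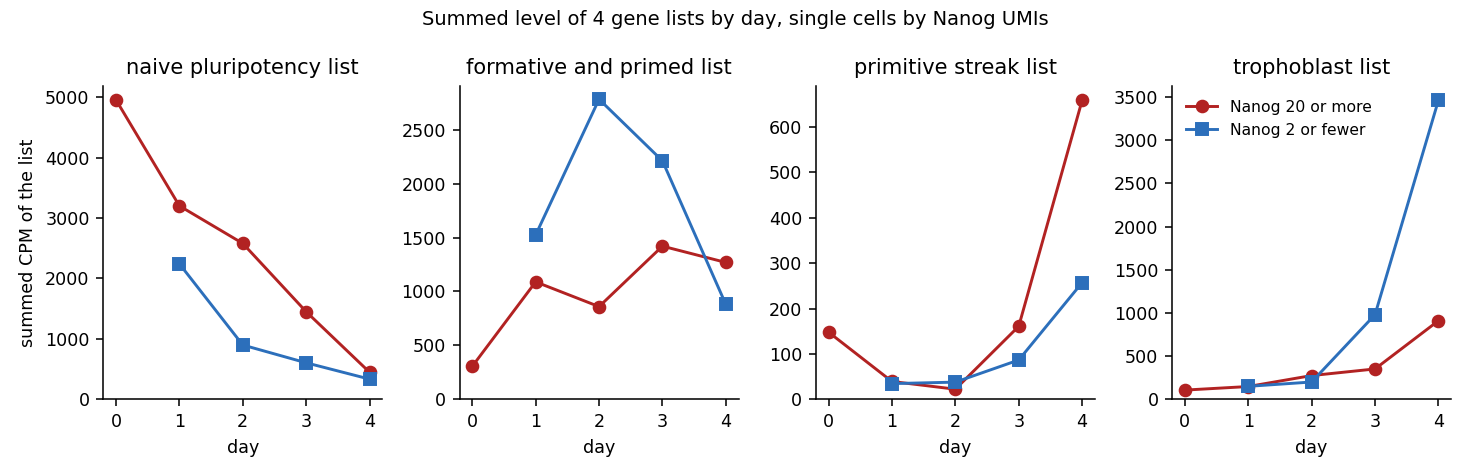
Summed CPM of the naive, formative, primitive streak and trophoblast gene lists (linear axes from 0) against day, in Nanog-high (circles) and Nanog-low cells (squares, not drawn for the 2 cells of day 0). In Nanog-high cells the naive sum falls from 4954 to 447 CPM, while the streak sum stands at 148 CPM at day 0 and 659 CPM at day 4.

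Genes of the primitive streak and mesendoderm were higher in Nanog-high cells. The list summed to 659 CPM in Nanog-high and 257 CPM in Nanog-low cells. This sum was higher in 10 of 10 columns, though by little in column 1 (332 against 326 CPM). The median log2 ratio of the list was above 0 in 7 columns and 0 in columns 1, 2 and 9. Across columns the sum ranged from 274 to 1420 CPM (median 437) in Nanog-high and from 112 to 516 CPM (median 205) in Nanog-low cells. The ranges thus overlapped although the direction of the sum was shared. Of the 12 members measured, 9 were above and 3 below 0, with a median of 0.86 on the log2 scale (column SD 1.00). Of the 9 members with at least 200 UMIs, 3 were past 2-fold, all higher. The 132 cells between the limits summed to 693 CPM, as high as the Nanog-high cells. In the Nanog-high cells of days 0 to 3 the same sum was 148, 39.3, 22.3 and 161 CPM.

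Eomes (chromosome 9, 118478212 to 118486132, plus strand) was among the streak genes past 2-fold. Its column values ranged from 7.03 to 274 CPM with a median of 119.9 in Nanog-high cells, and from 3.72 to 107 CPM with a median of 30.2 in Nanog-low cells. Most columns were high in the Nanog-high class, with an overlap at the low end, and 9 of 10 had more Eomes in it. Pooled, Eomes was 4.40-fold higher in Nanog-high cells, at 152 CPM (exact Poisson interval 145 to 158) against 34.5 CPM (31.7 to 37.6). Eomes was found in 55 of 85 Nanog-high, 41 of 98 Nanog-low and 16 of 325 day 0 cells. With each cell thinned to 40000 UMIs, the shares were 58.8%, 29.6% and 2.77%.

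Fst was much like Eomes, whereas T was less even. Fst, which encodes the activin antagonist follistatin, was 4.53-fold higher in Nanog-high cells (135 against 29.9 CPM) and higher in 9 of 10 columns. T was at 119 CPM in Nanog-high and 69.4 CPM in Nanog-low cells. Its columns ranged from 4.69 to 379 CPM and from 13.7 to 158 CPM, with T higher in Nanog-high cells in 6 and lower in 4. Sp5, a target of Wnt signalling in the streak, was at 69.4 and 37.5 CPM and higher in 8 of 10 columns. The spread of T between columns was thus as wide as its difference between the classes.

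The genes described next were chosen after their values were seen. Fgf8, the FGF ligand of the streak, was at 69.7 CPM in Nanog-high and 20.9 CPM in Nanog-low cells and higher in 9 of 10 columns. Evx1, a homeobox gene of the posterior streak, was found in 12 of 85 Nanog-high cells and in 1 of 98 Nanog-low cells. Mixl1, a homeobox gene of mesendoderm, was at 27.7 and 8.46 CPM and higher in 7 of 10 columns. Foxa2, a forkhead factor of the anterior streak and endoderm that belongs to the definitive endoderm list, was at 106 and 35.0 CPM and higher in 8 of 10 columns. Of the 11 measured members of that list, 7 were above and 4 below 0, with a median of 0.55 (column SD 0.81). Of the 7 members with at least 200 UMIs, 2 were past 2-fold. The list summed to 733 CPM in Nanog-high cells, 848 CPM between the limits and 547 CPM in Nanog-low cells. In each of Fgf8, Evx1, Mixl1 and Foxa2 at least 1 column had little or none of it in the Nanog-high class or went the other way. The 3 measured streak genes below 0 were Lhx1, Cdx1 and Mesp2, all with few UMIs, with log2 ratios of -0.16, -0.34 and -1.39.

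Cells were also classed by both programmes, with genes chosen after their values were seen. At least 20 UMIs summed over Eomes, T, Evx1 and Mixl1 were found in 50 of 85 Nanog-high cells (58.8%, 47.6% to 69.4%), 61 of 132 cells between the limits, 18 of 98 Nanog-low cells (18.4%, 11.3% to 27.5%) and 11 of 325 day 0 cells. At least 20 UMIs summed over Esrrb, Zfp42, Tfcp2l1 and Klf4 were found in 32 of 85 Nanog-high (37.6%), 36 of 98 Nanog-low (36.7%), 114 of 369 day 2 and 325 of 325 day 0 cells. In this count, which holds for the chosen genes only, the classes lay apart for the streak genes and close together for the naive genes. The naive set left out Fgf4 and Klf2, which were higher in Nanog-high cells, and Klf5, which was slightly lower. The streak set left out Fst, Fgf8 and Sp5, which were higher, and Lhx1, Cdx1 and Mesp2, which were lower. Both sets passed in 13 Nanog-high cells, only the streak set in 37, only the naive set in 19 and neither in 16. Naive genes passed in 13 of the 50 Nanog-high cells with streak genes and in 19 of the 35 others.

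Genes of the formative and primed epiblast, the state that follows the naive one, were present in both classes. The list summed to 1269 CPM in Nanog-high and 879 CPM in Nanog-low cells, against 299 CPM at day 0. Its median ratio was 0.39 with a column SD of 1.07. Of the 10 members with at least 200 UMIs, 2 were past 2-fold, both higher. Fgf5, the FGF ligand that marks the primed epiblast, ranged over columns from 179.7 to 504 CPM (median 380) in Nanog-high and from 13.7 to 281 CPM (median 158) in Nanog-low cells. It was higher in Nanog-high cells in 10 of 10 columns and 2.38-fold higher over all columns together, and was all but absent at day 0 (0.177 CPM). Cells between the limits had as much, with Fgf5 at 325 CPM in cells with 3 to 9 and 414 CPM in cells with 10 to 19 Nanog UMIs, and a list sum of 1283 CPM. At day 3 the list sum lay the other way, at 1420 CPM in Nanog-high and 2211 CPM in Nanog-low cells. Otx2, a homeobox gene of the primed epiblast, was at 113 and 46.7 CPM and higher in 8 of 10 columns. Dnmt3b, the de novo DNA methyltransferase, was at 573 and 498 CPM and higher in 5 of 10.

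Core pluripotency genes and the Nodal pathway were also higher in Nanog-high than in Nanog-low cells, but nearly as high in the cells between the limits. The core list summed to 3928 CPM in Nanog-high cells, 3687 CPM between the limits and 2791 CPM in Nanog-low cells. The Nodal list summed to 2136, 1980 and 1262 CPM in the same order. In the core list, 10 of 12 genes were above 0 and 4 were past 2-fold, all higher, with a median of 0.59 (column SD 0.47). In the Nodal list, 10 of 12 were above 0, with a median of 0.48 (column SD 0.54). Tdgf1 (Cripto), the co-receptor of Nodal, was at 836 and 407 CPM and higher in 9 of 10 columns. Lefty1, the Nodal inhibitor, was at 367 and 191 CPM, and Nodal itself was at 168 and 138 CPM. Gdf3, a ligand of the same pathway that lies beside Nanog on chromosome 6, was 2.49-fold higher (208 against 83.3 CPM). Pou5f1 and Sox2, chosen after their values were seen, were at 51.1 and 15.1 CPM and at 56.0 and 26.0 CPM.

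The 12 genes with the largest ratios were chosen for the same sign in all 10 columns, so that sign is part of the choice. Cxcl12, the chemokine ligand of Cxcr4, had the largest ratio, 10.3-fold, with 34.2 CPM in Nanog-high and 3.33 CPM in Nanog-low cells. Its columns ranged from 2.11 to 64.8 CPM (median 33.6) and from 0 to 16.0 CPM (median 1.14). The Nanog-high columns were mostly above the Nanog-low ones, with an overlap, and without column 7 the log2 ratio was 3.79 in place of 3.02. Spry2, an inhibitor of FGF receptor signalling, was 3.57-fold higher, with columns from 18.9 to 57.0 CPM in Nanog-high and from 6.82 to 20.1 CPM in Nanog-low cells, which barely overlapped. Etv5, an ETS factor downstream of FGF, was 2.56-fold higher, and its columns ranged from 36.5 to 102 CPM and from 10.8 to 37.4 CPM. Wnt8a, a Wnt ligand of the posterior epiblast, was 2.83-fold higher at 44.6 against 15.8 CPM. The list of Wnt targets did not share one direction, as 4 of 12 members were above and 8 below 0 with a median of -0.34 (column SD 0.64). Of its 6 members with at least 200 UMIs, 0 were past 2-fold. The list sum, led by T, was 329 against 243 CPM and was higher in Nanog-high cells in 4 of 10 columns.

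Zic5, a zinc finger factor, was 2.89-fold higher in Nanog-high cells (35.3 against 12.2 CPM). Pim2, an X-linked kinase, was at 384 and 153 CPM, and Lin28a, an RNA-binding protein that blocks let-7 processing, at 71.3 and 28.4 CPM. Mtfp1, Ina, Atp10a and Dancr were also among the 12, with log2 ratios of 1.83, 1.51, 1.38 and 1.28. The list of ERK feedback genes and targets, which does not hold Nanog, had 10 of 14 genes above 0, 4 of them past 2-fold, and a median of 0.76 (column SD 0.84). On days 1, 2 and 3 the median of this list lay the other way, at -0.22, -0.63 and -0.44. Dusp6, a phosphatase of ERK, was at 103 and 43.5 CPM and higher in 8 of 10 columns. Phlda1, another gene of this list, lay the other way at 27.9 and 51.2 CPM. Among the 35 Nanog-high and 147 Nanog-low cells of day 3, 6 of the 12 genes had a ratio above 0, as had 110 of the 233 higher genes and 45.6% of all genes tested.

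**Figure D3:**
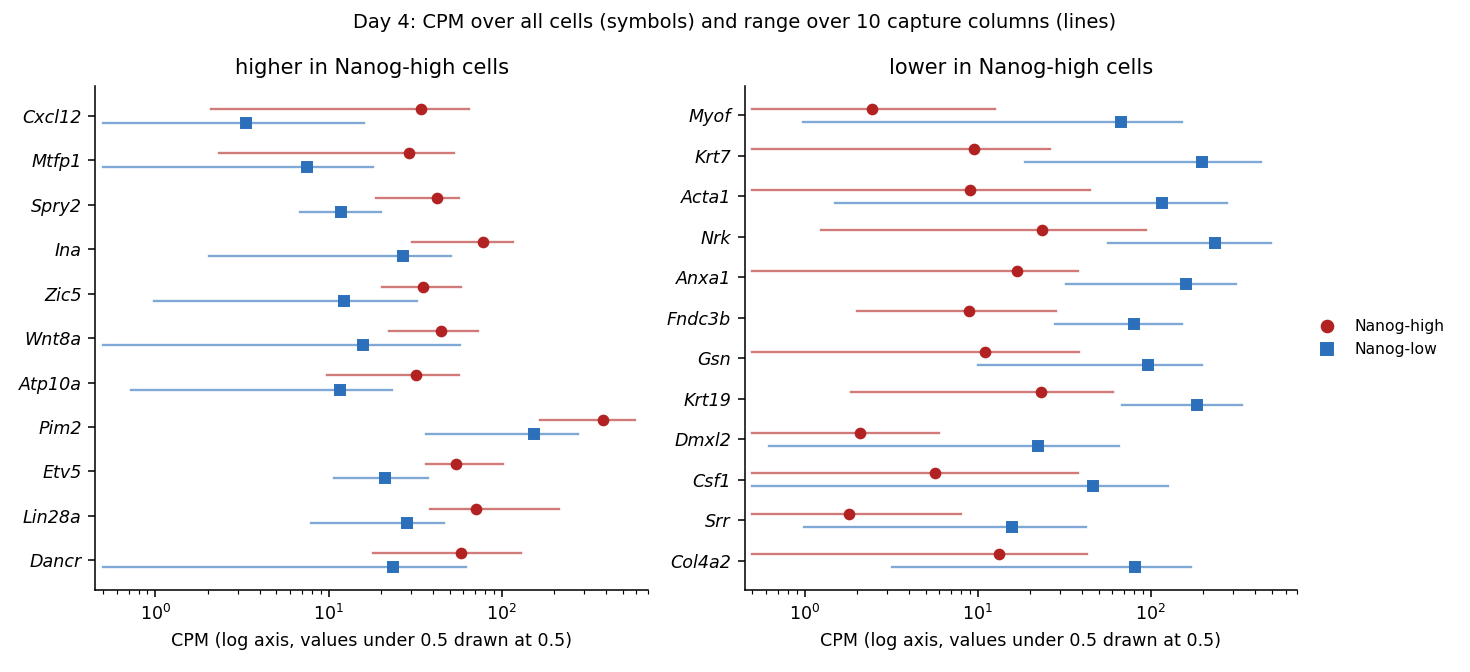
CPM (log axis, values under 0.5 drawn at 0.5) of genes among the 12 with the largest ratio (left, 1 not drawn) and of the 12 with the smallest ratio (right) of Nanog-high to Nanog-low cells at day 4. Symbols give the CPM over all cells of a class, and lines span the 10 capture columns, which overlap between the classes for most genes on both sides.

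Other genes were lower in Nanog-high cells. The 12 genes with the smallest ratios, again chosen for the same sign in all columns, had log2 ratios from -4.31 to -2.52. Krt7 (chromosome 15, 101411043 to 101430313, plus strand) ranged over columns from 0 to 26.2 CPM (median 5.60) in Nanog-high and from 18.8 to 430 CPM (median 229) in Nanog-low cells. The classes hardly overlapped, and Krt7 was 20.7-fold lower in Nanog-high cells (9.57 against 198 CPM). Myof, which encodes the membrane repair protein myoferlin, was 27.6-fold lower (2.45 against 67.5 CPM), and a single cell held most of its UMIs in the Nanog-high class. Krt19, another simple keratin, was 7.96-fold lower (23.3 against 185.7 CPM). Nrk, an X-linked kinase gene that is on in placenta, was 10.0-fold lower (23.5 against 235 CPM).

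Acta1, the skeletal muscle alpha-actin, was at 9.08 and 116 CPM, and 1 cell held 47.7% of its UMIs in the Nanog-high class. Gsn, the actin-severing protein gelsolin, was 8.70-fold lower, with a large part of its UMIs in the Nanog-high class also in a single cell. Anxa1, a phospholipid-binding annexin, was 9.50-fold lower (16.8 against 159 CPM). Col4a2, a basement membrane collagen chain, was 6.07-fold lower (13.3 against 80.6 CPM). Csf1, the macrophage growth factor, was 8.19-fold lower (5.66 against 46.3 CPM), a log2 ratio of -2.83 that was -3.71 without column 10. Fndc3b, Dmxl2 and Srr completed the 12, with log2 ratios of -3.04, -2.90 and -2.57. At day 3, 11 of these 12 genes also had a ratio below 0, the exception being Myof at 0.63, as had 306 of the 435 lower genes, while 45.6% of all genes tested were above 0 at that day.

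By list, trophoblast genes summed to 910 CPM in Nanog-high and 3463 CPM in Nanog-low cells and were lower in Nanog-high cells in 10 of 10 columns. The column ranges, 442 to 1305 CPM and 1451 to 5262 CPM, did not overlap. Of 10 members measured, 9 were below 0 with a median of -2.17 (column SD 1.25), and the 1 above was Eomes, which belongs to both the streak and the trophoblast list. Krt18, its most abundant member, was 4.11-fold lower (502 against 2062 CPM) and Krt8 4.96-fold lower (215 against 1063 CPM), and both belong also to the epithelial list. Esx1, a homeobox gene of the placenta, had 0 UMIs in Nanog-high cells and 73 in 13 Nanog-low cells, whereas the 11 UMIs of Elf5 came from 1 Nanog-low cell. Cdx2, a defining factor of trophoblast, had 8 UMIs in 2 Nanog-high cells and 0 in Nanog-low cells. Krt18 and Krt8 were both lower in Nanog-high cells in 10 of 10 columns. The part that cells of a trophoblast kind had in the differences between the classes was not tested.

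Epithelial genes summed to 2136 and 5084 CPM, with 11 of 12 members below 0, although this sum was led by the same keratins. Cdh1 (E-cadherin), which holds epithelial cells together, was at 463 and 643 CPM, and Epcam, an epithelial adhesion protein, lay the other way at 379 and 306 CPM and was higher in 8 of 10 columns. The smooth muscle and actin-regulated list summed to 4098 and 6809 CPM, with 13 of 15 members below 0 and a median of -0.77 (column SD 0.66). Tagln2 and Cald1, both actin-binding proteins, were at 352 and 823 CPM and at 449 and 882 CPM. The mesenchymal transition list had 6 members above and 7 below 0 and a median of -0.75 (column SD 0.36), which was 0.079 with Nanog-high set from 10 UMIs and, among day 3 cells, 0.023 over the same genes and -0.066 over the 12 members measured at day 3. Its most abundant genes were lower in Nanog-high cells, Lgals1 (galectin 1) at 670 against 1741 CPM, Sparc at 440 against 759 CPM and S100a6 at 97.9 against 296 CPM.

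A smaller set of Nanog-low cells carried the placental genes. At least 20 UMIs summed over Krt7, Plac1, Wnt6 and Ascl2, genes chosen after their values were seen, were found in 4 of 85 Nanog-high cells (4.71%, 1.30% to 11.6%), 20 of 132 cells between the limits and 38 of 98 Nanog-low cells (38.8%, 29.1% to 49.2%). The same minimum was passed by 50 of 369 day 2 cells (13.6%) and 4 of 325 day 0 cells. At least 5 UMIs were found in 35, 32 and 5 of 98 Nanog-low cells for Krt7, Wnt6 and Plac1. In the 85 Nanog-high cells these counts were 7, 3 and 0. No cell of either class passed for both the placental genes and the streak set of Eomes, T, Evx1 and Mixl1. That set was also chosen after its values were seen. With 0 of 85 and 0 of 98 cells past both minimums, the exact upper limits of the share that pass were 4.25% and 3.69%. These counts and limits hold for the chosen genes only. By another measure, the CPM of the whole streak list, an example cell of each class had streak and placental genes together. These examples give no share of cells, and capture sites listed as several cells were not left out. A Nanog-low cell had 622.2 CPM of the streak list and 267.8 CPM of the placental genes. A Nanog-high cell had 268.6 and 127.2 CPM.

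Cells were also divided by their Nanog UMIs into 60 with 0, 38 with 1 or 2, 65 with 3 to 9, 67 with 10 to 19, 65 with 20 to 39 and 20 with 40 or more. Krt18 stood at 2228, 1808, 885, 594, 485 and 549 CPM in this order, and so was already low in cells with 3 to 9 UMIs of Nanog. Eomes stood at 22.9, 52.2, 88.2, 119, 159 and 132 CPM. T stood at 23.0, 140, 198, 190, 126 and 97.1 CPM and so was highest between the limits. Esrrb stood at 17.0, 19.5, 32.7, 31.7, 54.0 and 58.6 CPM, and Tfcp2l1 at 61.4, 37.9, 36.1, 38.3, 38.3 and 44.7 CPM.

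Just outside and just inside the upper limit, the 34 cells with 15 to 19 and the 19 cells with 20 to 24 Nanog UMIs had 88.0 and 225 CPM of Eomes, 337 and 322 CPM of Fgf5, 773 and 792 CPM of Krt18 and 46.6 and 7.98 CPM of Esrrb. Just outside the lower limit, the 21 cells with 3 or 4 UMIs had 821 CPM of Krt18, 8.82 CPM of Krt7 and 303 CPM of T. Just inside it, the 38 cells with 1 or 2 UMIs had 1808 CPM of Krt18, 146 CPM of Krt7 and 140 CPM of T.

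**Figure D4:**
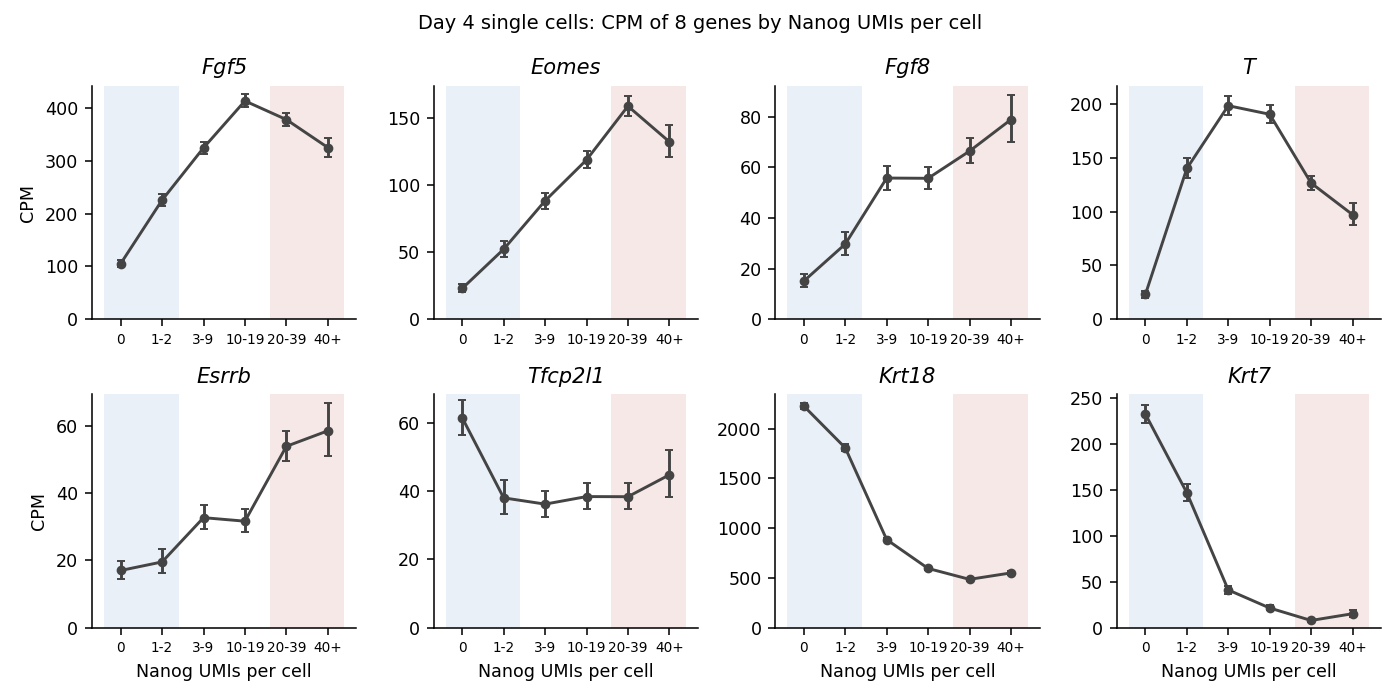
CPM (linear axes from 0) of 8 genes in day 4 cells grouped by their Nanog UMIs, with exact 95% Poisson intervals of the summed UMIs; blue shading marks Nanog-low and red shading Nanog-high groups. Krt18 falls from 2228 CPM to under 600 CPM, T is highest between the classes, and Tfcp2l1 stays between 36.1 and 61.4 CPM.

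More Nanog-high than Nanog-low cells had Xist, and the share of X-linked UMIs was lower in them. More than 5 UMIs of Xist, the RNA that coats and silences an X chromosome, were found in 61 of 85 Nanog-high cells (71.8%, 61.0% to 81.0%) and 47 of 98 Nanog-low cells (48.0%, 37.8% to 58.3%). Over the columns, the share ranged from 33.3% to 100% (median 72.2%) and from 27.3% to 71.4% (median 44.2%), and it was higher in Nanog-high cells in 7 of 10. The shares differed by 23.8 percentage points, and by 5.98 when 1 UMI of Xist was enough and by 11.9 after thinning to 40000 UMIs. X-linked genes other than Xist took a median of 4.11% of the UMIs in Nanog-high and 4.91% in Nanog-low cells, against 4.76% at day 0, and the median was lower in Nanog-high cells in 7 of 10 columns. Both X chromosomes were near balance, with a B6 fraction between 0.3 and 0.7, in 32 of 85 Nanog-high and 58 of 98 Nanog-low cells. Few cells had lost an X chromosome by the authors' criterion, 1 of 85 and 3 of 98. Rlim, an X-linked activator of Xist, was at 463 and 550 CPM.

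Over 10035 genes, the pooled profile of Nanog-high cells ranked most like that of day 3, with a Spearman coefficient of 0.95, followed by 0.89 for day 2, 0.85 for day 1 and 0.83 for day 0. For Nanog-low cells the coefficients were 0.91, 0.84, 0.81 and 0.80 in the same order. These describe genes of a few pooled profiles of the same cultures, which share much of their base composition and abundance.

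Bulk cultures, apart from replicate 1 of TX1072, were grown apart from the single cells and were not used to choose them. They were used to ask whether the return of Nanog, and of the genes that went with or against it, was seen between day 2 and day 4. In bulk, fewer cells of a type and less RNA per cell cannot be told apart. In TX1072, Nanog was at 64.3, 45.9 and 54.6 CPM at day 2 and at 198, 224 and 243 CPM at day 4 in replicates 1 to 3. All day 4 cultures lay above all day 2 cultures, and below the day 0 mean of 1062 ± 149 CPM (SD, n = 3). Nanog rose by a log2 change of 2.02 ± 0.17 (SE) in TX1072 (edgeR quasi-likelihood test, adjusted p = 2.9e-08). It rose by 1.30 ± 0.13 in TXdXicB6 (edgeR, adjusted p = 8.5e-09) and by 1.69 ± 0.13 in TXdXicCast (edgeR, adjusted p = 7.9e-11). Of all genes tested, 26.3% rose and 23.5% fell in TX1072, 23.9% and 22.9% in TXdXicB6, and 25.4% and 24.5% in TXdXicCast. The genes falling in TXdXicB6 numbered 4560, and 2776 without replicate 2.

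More naive genes fell than rose in bulk while Nanog rose. Of the 16 naive genes, 3 rose and 9 fell in TX1072, 2 rose and 11 fell in TXdXicB6, and 2 rose and 8 fell in TXdXicCast, with medians of -0.79, -0.92 and -0.59 on the log2 scale against 0.00094, 0.03 and 0.02 over all genes. Fgf4 fell in all 3 lines, by 3.60, 2.68 and 3.11 on the log2 scale, and Klf2 fell by 0.99, 1.63 and 1.18 (edgeR, largest adjusted p = 0.00032). Klf5 rose in all 3 lines, by 1.13, 0.63 and 1.19 (edgeR, largest adjusted p = 0.037), but its call in TXdXicB6 was lost without replicate 1 or 2 (edgeR, adjusted p = 0.18 and 0.063, and 7.0e-06 to 0.18 over all alternatives). Tfcp2l1 rose by 0.71 in TX1072 (edgeR, adjusted p = 0.00028), whereas its change of -0.23 in TXdXicB6 and 0.33 in TXdXicCast did not pass the test. Esrrb, chosen after its values were seen, was at 87.6, 53.3 and 65.5 CPM at day 2 and 42.0, 68.8 and 51.7 CPM at day 4 in TX1072, and the replicates of the 2 days overlapped (log2 change -0.34, edgeR, adjusted p = 0.13). Zfp42, chosen likewise, fell by 0.81, 0.88 and 0.62 (edgeR, largest adjusted p = 0.0012).

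Streak genes rose in bulk. Of 13 streak genes tested, 11 rose and 1 fell in TX1072, 10 rose and 1 fell in TXdXicB6, and 11 rose and 1 fell in TXdXicCast, with medians of 3.63, 2.14 and 2.41. Eomes was at 7.57, 6.58 and 7.34 CPM at day 2 and at 121, 77.8 and 66.7 CPM at day 4 in TX1072. The replicates of the 2 days did not overlap, and the log2 change was 3.63 ± 0.22 (edgeR, adjusted p = 4.1e-10). Its log2 change was 2.16 in TXdXicB6 and 2.06 in TXdXicCast (edgeR, largest adjusted p = 1.9e-09). T was at 0.783, 0.406 and 0.520 CPM at day 2 and at 180, 97.8 and 69.8 CPM at day 4 in TX1072, so that replicate 1, from the population of the single cells, had the most. T rose by 7.70 in TX1072, 5.31 in TXdXicB6 and 6.09 in TXdXicCast (edgeR, largest adjusted p = 1.3e-07), where it was 5.47 without replicate 3. Fgf5 rose by 1.59, 1.21 and 1.25 (edgeR, largest adjusted p = 2.1e-06), whereas Otx2, which was on the Nanog-high side in single cells, fell by 0.99, 0.84 and 1.13 (edgeR, largest adjusted p = 5.7e-05). Of the 12 formative genes, 2 rose and 8 fell in TX1072, 3 and 6 in TXdXicB6, and 2 and 7 in TXdXicCast. In the core list of 12, 0 rose and 8 fell, 2 and 7, and 0 and 10 in the same order. The Nodal list had 7 rising and 3 falling, 5 and 3, and 6 and 4. The ERK list had 6 and 2, 8 and 2, and 6 and 3.

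All 12 genes with the smallest single-cell ratios rose in TX1072, 10 of 12 in TXdXicB6 and 12 of 12 in TXdXicCast. Of all genes tested, 26.3%, 23.9% and 25.4% rose in these lines. The 12 genes had to have a UMI in at least 25% of the Nanog-low cells of day 4. That choice favours genes that are on at day 4, so a rise from day 2 was favoured in advance. The calls of Dmxl2 and Srr were lost under some alternatives, with adjusted p-values from edgeR or DESeq2 of 0.017 to 0.15 and 0.019 to 0.20 in TX1072, and of 0.0057 to 0.22 and 0.0067 to 0.084 in TXdXicCast. Of the trophoblast list, 8 of 11 genes tested rose and 1 fell in TX1072, 8 of 12 rose and 2 fell in TXdXicB6, and 8 of 12 rose and 1 fell in TXdXicCast. Krt7 was at 4.17, 3.04 and 2.58 CPM at day 2 and at 59.6, 58.8 and 59.5 CPM at day 4 in TX1072, with no overlap and a log2 change of 4.20 ± 0.19 (edgeR, adjusted p = 2.0e-11). Krt8 rose by 4.97, 4.29 and 5.36 in the 3 lines (edgeR, largest adjusted p = 4.6e-11). The 12 genes with the largest single-cell ratios were divided, with 4 rising and 5 falling in TX1072, 4 and 4 in TXdXicB6, and 2 and 5 in TXdXicCast. Spry2 rose by 0.91, 0.82 and 0.43 and Atp10a by 1.55, 1.32 and 1.25 (edgeR, largest adjusted p = 0.0048). In TXdXicCast the change of Spry2 was 0.28 without replicate 1 and 0.39 without replicate 2, where its call was lost (edgeR, adjusted p = 0.20 and 0.065, and 0.00015 to 0.20 over all alternatives). Pim2 fell by 1.47, 0.72 and 1.72 (edgeR, largest adjusted p = 0.0088).

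**Figure D5:**
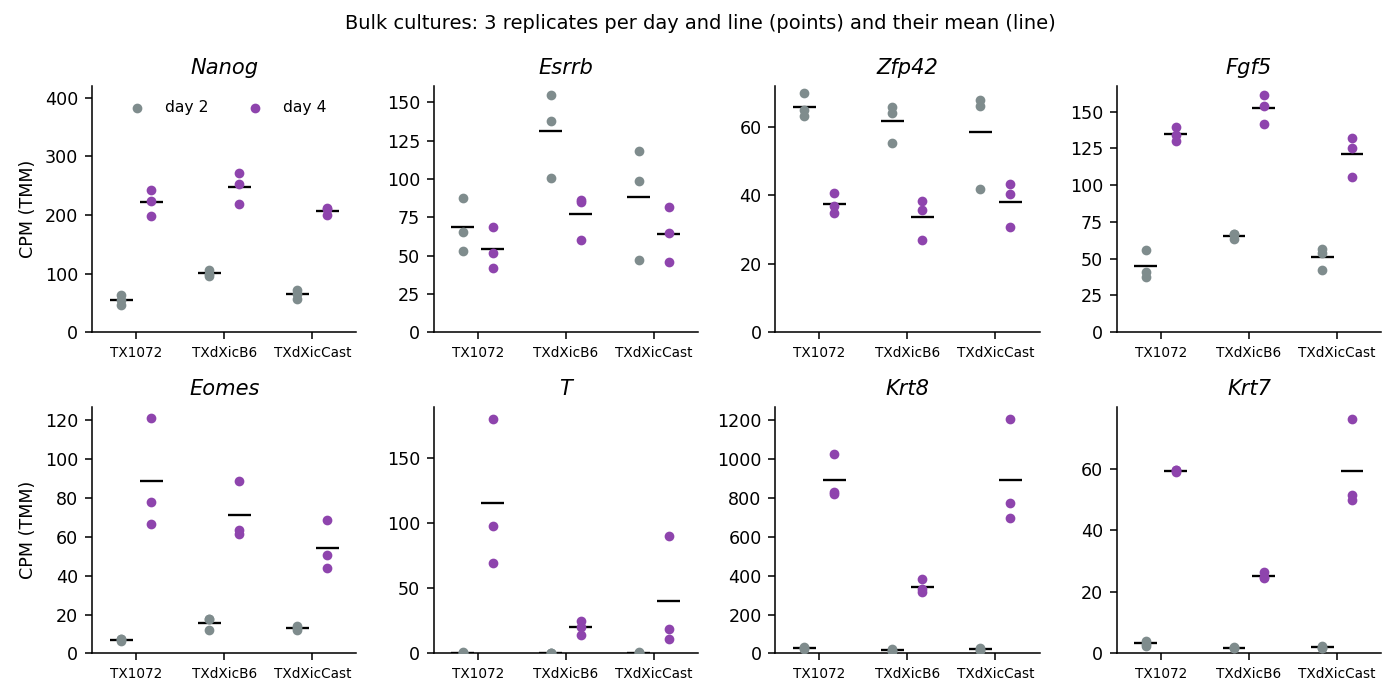
CPM after TMM scaling (linear axes from 0) of 8 genes in bulk TX1072, TXdXicB6 and TXdXicCast cultures at day 2 (grey) and day 4 (purple), with each of 3 replicates as a point and their mean as a line. The day 4 points of Nanog, Fgf5, Eomes, T, Krt8 and Krt7 all lie above the day 2 points of their line, and those of Esrrb overlap them in TX1072.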

How the data were processed

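Single-cell RNA-seq of TX1072 cells (C1 system with UMIs) and bulk RNA-seq of 3 lines were used. The authors deposited raw UMI counts per gene and capture site and raw read counts per gene and bulk library, made with STAR 2.5.2b on mm10 (GRCm38) and, for bulk, featureCounts. Allele-specific and unspliced counts of the same sites were read for X-linked genes and Nanog. The authors inspected the capture sites by eye for multiple cells, and no further doublet caller was run. No column was left unmapped (0 not used), and no capture site name was shared between days.

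Cells were classed by Nanog UMIs and their UMIs summed per class, as CPM of UMIs outside ERCC sequences. A total of 14315099 UMIs lay in Nanog-high and 15610366 in Nanog-low cells. Shares have exact Clopper-Pearson and sums exact Poisson 95% intervals. UMIs of 1 gene in 1 cell came in groups, so that thinning cells from a median of 167806 to 40000 UMIs took the share of Nanog-high cells with Esrrb only from 31.8% to 25.9%. The Poisson intervals are therefore too narrow, and the range over the 10 capture columns is the wider measure. No test was run across cells, since all cells of a day share 1 culture.

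Bulk counts were tested with edgeR 4.0.16 in R 4.3.3 (quasi-likelihood test, TMM, filterByExpr, two-sided, Benjamini-Hochberg adjusted p of 0.05), with 15 TX1072 libraries in 1 fit and 30 deletion-line libraries in another, and the contrast of day 4 with day 2. The SE was derived from the F statistic. Per the study's reporting, differentiation of the replicates began on separate days, and a shared number therefore pairs samples. Deviations of day 4 and day 2 libraries of the same number correlated at -0.02, 0.10 and 0.16 in TX1072, 0.02, 0.12 and 0.26 in TXdXicB6 and 0.36, 0.17 and 0.07 in TXdXicCast. DESeq2 1.42.0 was an alternative. Tested on simulated data, the class comparison recovered 190 of 200 genes changed 4-fold with 0 false among 10036, and edgeR in the TX1072 design 200 of 200 changed 2-fold with 11 false among 18118.

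The genes named are Nanog, up to 4 genes of each of 26 lists with the most UMIs in the 2 classes, and the 12 genes with the largest and the 12 with the smallest ratio among those past 2-fold with the same sign in every capture column with at least 3 cells of each class, leaving out clone names, with 1 of the former 12 not reported here. Others are said to be chosen after their values were seen. The cells, lists and tests were chosen with earlier results of these data known. Gene positions are from GENCODE M21. A list gene counted as measured with at least 20 UMIs. The alternatives were other limits for Nanog, cells and genes, thinning, a pseudocount of 5, cells of day 3, cells the authors retained, single columns or replicates left out, DESeq2, its size factors, no filter on low counts and a replicate block.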

Additional observations from a re-analysis of the deposited data

Results flagged for a closer look

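Sets of 10 capture columns were looked at for a column that stood apart from the other 9, by the gap to its neighbour as a share of the whole range (Dixon's test at 95%). Chance gives such a column in about 1 in 20 sets, and 8 of 56 sets had one. The median log2 ratio of the naive list was -2.15 in 1 column, below all others. Lin28a was at 213 CPM in the Nanog-high cells of 1 column, and Cxcl12 at 16.0 CPM in the Nanog-low cells of 1 column.

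The other 5 sets were genes low in Nanog-high cells that had 1 high column in that class. Myof reached 12.6 CPM, Acta1 44.8 CPM, Nrk 94.3 CPM, Gsn 38.6 CPM and Csf1 37.9 CPM in that column. Single cells weighed heavily in some of these genes, as the cell with the most UMIs held 51.4% of the UMIs of Myof, 47.7% of Acta1, 38.6% of Gsn and 48.1% of Csf1 over all Nanog-high cells.

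In bulk, the rise of Fndc3b between day 2 and day 4 differed between the deletion lines, with a log2 change lower by 1.19 in TXdXicB6 than in TXdXicCast, a difference of -1.19 (edgeR interaction term, adjusted p = 0.025).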

How the results depend on the processing

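Of 170 alternative values of the main results, 159 stayed within their spread or within 1.5 times the count. With Nanog-high set from 10 UMIs, the class held 48.3% of day 4 cells and the mesenchymal list had a median of 0.079. With Nanog-high from 40 UMIs and Nanog-low at 0, it held 6.35%, and 392 genes were higher and 772 lower. Thinned to 40000 UMIs, where fewer genes reach 200 UMIs, 94 were higher and 203 lower, and a pseudocount of 5 left 130 higher. Among day 3 cells the naive median was 1.56 and the mesenchymal median 0.023 over the genes measured at day 4 (-0.066 over those measured at day 3). Left-out single replicates moved the genes falling in TXdXicB6 down to 2776, without replicate 2, and in all to between 2776 and 4013. Of 703 alternative values of named single-cell genes, 8 that were past 2-fold at day 4 changed sign, all among day 3 cells, where Spry2 was at -0.43, Zic5 at -0.60, Wnt8a at -0.28, Atp10a at -0.14, Pim2 at -0.54, Lin28a at -0.063, Myof at 0.63 and Lgals1 at 0.023 on the log2 scale, and the cause was not tested. Genes not past 2-fold at day 4 were not counted here, such as Tfcp2l1, at -0.37 at day 4 and 0.86 among day 3 cells. Of 777 alternative values of named genes in bulk, 740 kept their side of the threshold, 12 gained and 25 lost a call, and 0 reversed. The calls lost were of Cxcl12, Dmxl2 and Srr in TX1072, of Dancr, Etv5, Klf5, Lin28a and Zic5 in TXdXicB6, and of Dmxl2, Spry2 and Srr in TXdXicCast. With the replicate block, which pairs samples by number, 2 calls were gained, Fn1 in TX1072 (log2 change -0.55, adjusted p = 0.041 with edgeR) and Ina in TXdXicB6 (0.45, adjusted p = 0.047 with edgeR), and no other call of a named gene changed with the block. The single-cell comparisons rest on 1 culture, and values per capture column rest on as few as 3 Nanog-high cells.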

Other observations

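Of 14 proliferation genes, 12 had a log2 ratio of Nanog-high to Nanog-low cells of day 4 above 0, with a median of 0.44 and a column SD of 0.21. Top2a, which untangles DNA at mitosis, was at 937 and 695 CPM, and Mcm6, a subunit of the replicative helicase, at 386 and 267 CPM, each higher in Nanog-high cells in 9 of 10 columns. Mki67 lay slightly the other way at 302 and 346 CPM and was higher in 5 of 10. Germ cell genes summed to 718 and 653 CPM, with the sum higher in Nanog-high cells in 5 of 10 columns, a median ratio of 0.35 (column SD 1.06) and a median cell at 523 and 537 CPM. In this list Prdm1, a repressor of the somatic programme in germ cell precursors, was 3.56-fold higher at 28.7 against 8.07 CPM and Ddx4 was at 23.3 and 22.8 CPM. The mesoderm list had 3 of 11 measured members above and 8 below 0, with a median of -0.92, whereas the median within single columns was 0 in 9 of 10 and -0.66 in the other, and sums of 77.9 and 90.2 CPM. In it Twist1 was 5.20-fold higher (log2 ratio 2.10) and Msx2 13.7-fold lower (1.96 against 26.8 CPM) in Nanog-high cells. No two-cell-like gene reached 20 UMIs in both classes together.

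Imprinted genes of the growth pathway were chosen after their values were seen. H19, a maternally expressed RNA, was at 67.8 CPM in Nanog-high and 681 CPM in Nanog-low cells, and Igf2, the growth factor gene beside it, at 4.19 and 81.7 CPM. Both were lower in Nanog-high cells in 9 of 10 columns.

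Allelic reads of Nanog were sparse. Nanog-high cells had 60 UMIs from the B6 and 27 from the Cast allele, found in 14 of 85 cells, of which 0 had both.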
